A study of Mus musculus with 12 samples.

Results

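RNA from whole liver was examined for 10 genes whose proteins coat, enlarge, hydrolyse or guard the lipid droplet. They are the perilipins Plin2, Plin4 and Plin5, the CIDE proteins Cideb and Cidec, the lipases Pnpla2 and Pnpla3, the lipase coactivator Abhd5, and the lipase inhibitors G0s2 and Hilpda. The members were chosen by symbol, and all 10 were found among 48795 genes of the deposited table and among the 13812 genes with enough counts for a test. The study sequenced livers of female mice, 4 months old and kept on normal chow, that were whole-body Nts-/- or Nts+/+ littermates (Nts encodes the gut peptide neurotensin). Mice had either free access to food or no food for 22 h, which gave 4 groups of 3 mice: Nts+/+ fed (mice 254, 257 and 323), Nts+/+ fasted (265, 282 and 322), Nts-/- fed (277, 303 and 319) and Nts-/- fasted (284, 290 and 295). Each mouse is 1 replicate, and the loss of Nts affects every tissue of the animal and not the liver alone. The labels show no batch that differs between samples.

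The targeted gene itself did not follow the genotype labels. Nts had 0 counts in all 6 livers labelled Nts+/+, and 46, 40 and 15 counts in the fed and 12, 4 and 18 counts in the fasted livers labelled Nts-/-. The cause was not tested. Groups are therefore named as labelled, and every direction given between genotypes rests on those labels. On the first principal component of all tested genes, which held 41.7% of the variance, the 6 fed mice lay between -41.3 and -28.0 and the 6 fasted mice between 27.7 and 43.2. The fed mouse nearest to the fasted ones, at -28.0, was mouse 323 (labelled Nts+/+). The main fold changes and correlations that rest on it are given with and without it, while group levels, ratios and shares include it. Depth was between 21999647 and 45273069 counts per mouse, at which 3 counts correspond to between 0.0709 and 0.142 CPM, that is, counts scaled to the size of the library. The summed level of 6 hepatocyte markers was between 107000 and 140000 CPM in every group, and was mostly Alb (87200 to 115000 CPM). Ttr was between 5530 and 8840 CPM in fed and between 3420 and 4290 CPM in fasted mice. Apoa1 was between 3830 and 6660 CPM in fed and between 7150 and 11200 CPM in fasted mice. Fed and fasted values of Alb, Cps1, Serpina1a and Tat overlapped. In bulk RNA, fewer cells of a type and less RNA per cell cannot be told apart.

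A lipid droplet is a store of triacylglycerol and cholesteryl ester enclosed by a phospholipid monolayer, and the proteins on that surface set how fast it grows and how fast its lipid is released. Perilipins cover the surface, with Plin2 the constitutive coat of hepatocyte droplets and Plin5 found in oxidative tissues. CIDE proteins fuse droplets or load lipid onto lipoproteins. Adipose triglyceride lipase, the product of Pnpla2, cleaves the first fatty acid from triacylglycerol. It is activated by Abhd5 (CGI-58) and inhibited by G0s2 and Hilpda, and in the fasted liver it meets fatty acids arriving from adipose tissue.

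The promoters of the 7 members that passed the fasting test below are shown, each at its first listed start, since several of these genes are textbook targets of nuclear receptors and of SREBP1. The windows run from 250 bases before the annotated start to 50 bases after it, and come from RefSeq on GRCm38.p6. In the 13 windows of the 10 members (some genes have a second start), 6 motifs were sought on both strands. Capitals mark the motifs found, which were the nuclear receptor half-site AGGTCA and the E-box CACGTG.
Cidec, chr6:113435711-113436010, minus strand: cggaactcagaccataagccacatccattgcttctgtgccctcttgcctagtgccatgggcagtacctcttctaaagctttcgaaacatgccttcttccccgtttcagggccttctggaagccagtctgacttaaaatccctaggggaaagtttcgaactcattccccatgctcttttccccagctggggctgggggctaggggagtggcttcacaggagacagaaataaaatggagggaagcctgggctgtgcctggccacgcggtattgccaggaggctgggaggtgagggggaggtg
Plin4, chr17:56109733-56110032, minus strand: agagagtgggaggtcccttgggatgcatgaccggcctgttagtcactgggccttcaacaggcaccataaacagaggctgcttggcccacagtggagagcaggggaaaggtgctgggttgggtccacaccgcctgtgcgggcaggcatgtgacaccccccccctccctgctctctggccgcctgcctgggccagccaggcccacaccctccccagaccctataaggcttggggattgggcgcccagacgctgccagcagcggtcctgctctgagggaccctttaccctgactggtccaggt
Plin5, chr17:56117499-56117798, minus strand: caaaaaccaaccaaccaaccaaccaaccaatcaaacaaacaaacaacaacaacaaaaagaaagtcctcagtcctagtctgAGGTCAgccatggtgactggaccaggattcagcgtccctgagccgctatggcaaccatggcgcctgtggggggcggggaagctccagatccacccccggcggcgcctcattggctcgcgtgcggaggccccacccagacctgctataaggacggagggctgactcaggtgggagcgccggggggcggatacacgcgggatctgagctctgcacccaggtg
Plin2, chr4:86670010-86670309, minus strand: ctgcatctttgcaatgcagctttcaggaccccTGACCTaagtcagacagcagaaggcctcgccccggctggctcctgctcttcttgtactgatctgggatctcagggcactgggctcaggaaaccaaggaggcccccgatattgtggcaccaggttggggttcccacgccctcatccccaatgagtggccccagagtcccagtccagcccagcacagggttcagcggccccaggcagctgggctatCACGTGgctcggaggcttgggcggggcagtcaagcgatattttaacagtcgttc
Pnpla2, chr7:141454938-141455237, plus strand: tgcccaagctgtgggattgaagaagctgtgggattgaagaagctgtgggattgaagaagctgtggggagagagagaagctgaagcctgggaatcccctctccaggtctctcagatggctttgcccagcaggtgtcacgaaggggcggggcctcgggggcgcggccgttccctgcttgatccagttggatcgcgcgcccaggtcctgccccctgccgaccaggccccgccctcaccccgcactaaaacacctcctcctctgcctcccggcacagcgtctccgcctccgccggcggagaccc
Hilpda, chr6:29272238-29272537, plus strand: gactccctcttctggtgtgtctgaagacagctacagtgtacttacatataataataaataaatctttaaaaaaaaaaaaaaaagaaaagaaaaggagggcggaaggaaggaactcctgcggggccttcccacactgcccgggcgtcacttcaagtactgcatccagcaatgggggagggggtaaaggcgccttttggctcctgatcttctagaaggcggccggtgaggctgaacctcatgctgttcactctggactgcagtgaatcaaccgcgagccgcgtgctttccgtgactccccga
Pnpla3, chr15:84167566-84167865, plus strand: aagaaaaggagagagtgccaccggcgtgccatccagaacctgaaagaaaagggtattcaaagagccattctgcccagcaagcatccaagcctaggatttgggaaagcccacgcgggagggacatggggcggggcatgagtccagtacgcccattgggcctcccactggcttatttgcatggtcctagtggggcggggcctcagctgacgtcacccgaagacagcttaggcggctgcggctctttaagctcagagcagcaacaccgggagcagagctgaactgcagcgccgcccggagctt

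The half-site AGGTCA, which nuclear receptors read, lay in 4 of the 13 windows, against 16.3% of the 32851 windows of all genes. These were the windows of Plin2, Abhd5 and both starts of Plin5. The direct repeat of that half-site with 1 base between, the element PPARs bind, was in no member's window and in 0.0396% of all windows. The E-box CACGTG was in the window of Plin2, against 7.15% of all windows. For the core of the hypoxia element, only the letters ACGTG were sought, and other forms of the core were not. These letters overlap the E-box of Plin2. They were also in the second window of Hilpda, a known target of hypoxia-inducible factors, against 19.6% of all windows. TATAAA stood in the window of Cideb, against 13.6% of all windows. The site TCACNCCAC, which SREBPs recognise, was in no member's window, Pnpla3 included, against 1.24% of all windows. A match here is a description of letters, and its absence says nothing about a factor's binding elsewhere.

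Fasting moved most of these genes by a large amount and in the same direction in both genotypes. Levels below are TMM-normalized CPM, and tests are the quasi-likelihood test of edgeR with Benjamini-Hochberg adjustment over all 13812 genes. In livers labelled Nts+/+, 7 of 10 members passed at an adjusted p under 0.05, 6 higher and 1 lower, against 18.1% of all tested genes (8.91% higher and 9.19% lower). In livers labelled Nts-/-, 7 of 10 members passed, again 6 higher and 1 lower, against 16.8% of all genes (7.70% higher and 9.14% lower). The median log2 fold change of the members was 1.33 in livers labelled Nts+/+ and 1.39 in those labelled Nts-/-, while that of all tested genes was -0.0032 and -0.011. The genes that passed were the same 7 in each genotype, namely Plin2, Plin4, Plin5, Cidec, Pnpla2, Hilpda and Pnpla3.

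**Figure D1:**
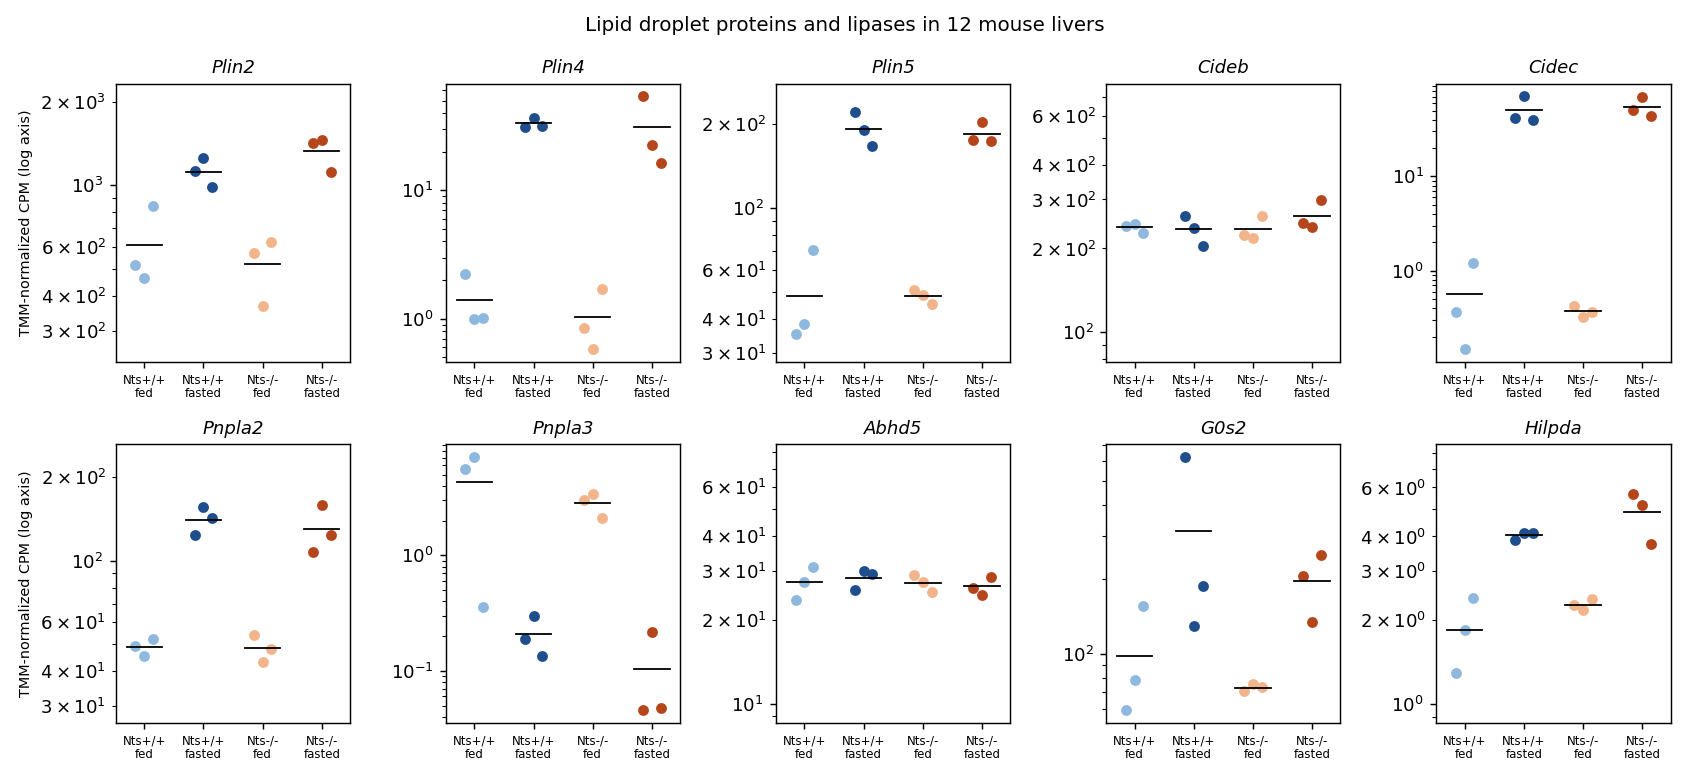
TMM-normalized CPM of the 10 members on log axes, in 12 livers. Each point is 1 mouse and each bar the mean of 3, and fasted mice lie above fed mice for Plin2, Plin4, Plin5, Cidec, Pnpla2 and Hilpda, and below them for Pnpla3.

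Plin2, the coat protein of hepatocyte droplets, had the highest mean level per transcript length of the members in every group. In livers labelled Nts+/+ it measured 516, 465 and 843 CPM when fed and 1122, 1250 and 988 CPM when fasted. In livers labelled Nts-/- it measured 571, 369 and 626 CPM when fed and 1421, 1460 and 1119 CPM when fasted. No fed mouse reached the level of any fasted mouse, although mouse 323 lay near the fasted range. Plin2 rose 1.84-fold (log2 0.88, SE 0.24, adjusted p = 0.0214) in livers labelled Nts+/+ and 2.56-fold (log2 1.35, SE 0.24, adjusted p = 0.00209) in livers labelled Nts-/-. The first call is not firm. The adjusted p was 0.098 without mouse 254, 0.0885 without mouse 257 and 0.0844 without mouse 282, and 0.00421 without mouse 323.

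Plin4, a perilipin best known from white adipocytes and muscle, rose from a trace. It measured 2.22, 0.993 and 1.02 CPM in fed and 31.2, 36.9 and 31.8 CPM in fasted livers labelled Nts+/+, a rise of 23.4-fold (log2 4.55, SE 0.54, adjusted p = 0.000605). In livers labelled Nts-/- it measured 0.847, 0.579 and 1.69 CPM when fed and 54.1, 22.7 and 16.4 CPM when fasted, a rise of 30.3-fold (log2 4.92, SE 0.56, adjusted p = 0.000388). The fasted mice of the second genotype spanned a wider range, led by mouse 284. Plin4 had the 20th largest rise of all tested genes in livers labelled Nts+/+ and the 16th in livers labelled Nts-/-.

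Plin5, the perilipin that ties droplets to mitochondria, measured 35.4, 38.3 and 70.7 CPM in fed and 221, 190 and 167 CPM in fasted livers labelled Nts+/+. It measured 50.7, 48.5 and 45.1 CPM when fed and 176, 204 and 174 CPM when fasted in livers labelled Nts-/-. The fed and fasted mice did not overlap in either genotype, with mouse 323 the highest of the 6 fed mice. The rise was 4.01-fold (log2 2.00, SE 0.22, adjusted p = 0.000138) and 3.84-fold (log2 1.94, SE 0.22, adjusted p = 0.000114). Without mouse 323, the first log2 fold change was 2.39. Plin4 and Plin5 are neighbours on chromosome 17, at 56100591 to 56109803 and 56111601 to 56117596 (GRCm38), both on the minus strand.

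Cidec, which promotes the fusion of droplets into large ones in adipocytes, changed more than any other member. It measured 0.369, 0.147 and 1.20 CPM in fed and 41.2, 70.8 and 39.8 CPM in fasted livers labelled Nts+/+. In livers labelled Nts-/- it measured 0.423, 0.326 and 0.363 CPM when fed and 51.2, 70.2 and 43.4 CPM when fasted. The fed levels rest on few reads, 41 counts in the 3 fed mice labelled Nts+/+ (95% Poisson interval 29.4 to 55.6) and 34 counts in those labelled Nts-/- (23.5 to 47.5), an interval that covers counting error only. Cidec rose 92.4-fold (log2 6.53, SE 0.50, adjusted p = 5.35e-05) and 145-fold (log2 7.18, SE 0.52, adjusted p = 2.67e-05), the 8th and the 2nd largest rise of all tested genes. Without mouse 323, the log2 fold change in livers labelled Nts+/+ was 7.60. The summed level of Adipoq, Plin1, Lep, Retn, Cfd and Cidea was between 0 and 0.0443 CPM in fed and between 0.0472 and 0.26 CPM in fasted mice, with Lep and Retn at 0 counts in every mouse. Plin4, also an adipocyte gene, rose beside the same marker values.

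Cideb, the CIDE protein of hepatocytes that acts in loading very-low-density lipoproteins, did not show such a change. It measured 241, 245 and 228 CPM in fed and 262, 237 and 204 CPM in fasted livers labelled Nts+/+, and 224, 219 and 261 CPM against 248, 240 and 300 CPM in livers labelled Nts-/-. All groups overlapped, and the log2 fold change was -0.02 (95% interval -0.31 to 0.27, adjusted p = 0.931) and 0.16 (-0.13 to 0.45, adjusted p = 0.453).

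Pnpla2, which encodes adipose triglyceride lipase, rose in both genotypes. It measured 49.3, 45.6 and 52.1 CPM in fed and 123, 156 and 142 CPM in fasted livers labelled Nts+/+, and 53.9, 43.2 and 48.3 CPM against 107, 159 and 124 CPM in livers labelled Nts-/-. Every fasted mouse exceeded every fed mouse. The rise was 2.87-fold (log2 1.52, SE 0.16, adjusted p = 7.12e-05) and 2.68-fold (log2 1.42, SE 0.15, adjusted p = 7.64e-05).

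Pnpla3, a patatin-domain lipase and acyltransferase of the same family whose transcription is known to follow feeding, was the one member that fell. It measured 5.58, 7.10 and 0.355 CPM in fed and 0.190, 0.298 and 0.136 CPM in fasted livers labelled Nts+/+, from 151, 193 and 8 counts and 4, 9 and 5 counts. In livers labelled Nts-/- it measured 2.99, 3.37 and 2.10 CPM when fed and 0.0458, 0.217 and 0.0472 CPM when fasted, from 113, 93 and 52 counts and 1, 5 and 2 counts. Mouse 323 stood next to the fasted mice, at 8 counts. Pnpla3 fell 20.9-fold (log2 -4.38, SE 0.91, adjusted p = 0.00873) and 28.8-fold (log2 -4.85, SE 1.03, adjusted p = 0.0103), the 8th and the 15th largest fall of all tested genes. The fasted livers held 18 counts in all (95% Poisson interval 10.7 to 28.4) under the Nts+/+ label and 8 counts (3.45 to 15.8) under the Nts-/- label, so the size of the fall is loosely set. Without mouse 323 the first log2 fold change was -4.92, and without mouse 295 the adjusted p of the second was 0.0528.

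Abhd5, the coactivator of adipose triglyceride lipase, differed by less than the spread between mice. It measured 23.6, 27.4 and 30.9 CPM in fed and 25.7, 30.0 and 29.3 CPM in fasted livers labelled Nts+/+, and 29.0, 27.3 and 25.2 CPM against 26.1, 24.6 and 28.5 CPM in livers labelled Nts-/-. All groups overlapped. The log2 fold change was 0.05 (95% interval -0.21 to 0.32, adjusted p = 0.802) in livers labelled Nts+/+ and -0.04 (-0.31 to 0.22, adjusted p = 0.861) in livers labelled Nts-/-.

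G0s2, an inhibitor of that lipase, did not pass the test in either genotype. It measured 59.3, 78.1 and 156 CPM in fed and 623, 130 and 188 CPM in fasted livers labelled Nts+/+, which overlap. In livers labelled Nts-/- it measured 70.6, 75.3 and 73.3 CPM when fed and 206, 135 and 250 CPM when fasted, which do not. The log2 fold change was 1.68 (95% interval 0.37 to 2.99, adjusted p = 0.077) and 1.43 (0.13 to 2.73, adjusted p = 0.124). Single mice decide the first value. It was 0.71 (adjusted p = 0.248) without mouse 265, the highest, and it passed without mouse 323 (2.19, adjusted p = 0.0463), without mouse 282 (2.05, adjusted p = 0.0458) and with DESeq2 (1.69, adjusted p = 0.0375). The value in livers labelled Nts-/- passed when the 6 mice were fitted alone (1.43, adjusted p = 0.0027).

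Hilpda, a second and hypoxia-inducible inhibitor of the lipase, was low but rose. It measured 1.29, 1.84 and 2.39 CPM in fed and 3.89, 4.13 and 4.12 CPM in fasted livers labelled Nts+/+, and 2.28, 2.17 and 2.38 CPM against 5.68, 5.20 and 3.76 CPM in livers labelled Nts-/-. Fed and fasted mice did not overlap. The rise was 2.21-fold (log2 1.14, SE 0.23, adjusted p = 0.00495) and 2.13-fold (log2 1.09, SE 0.23, adjusted p = 0.00576).

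**Figure D2:**
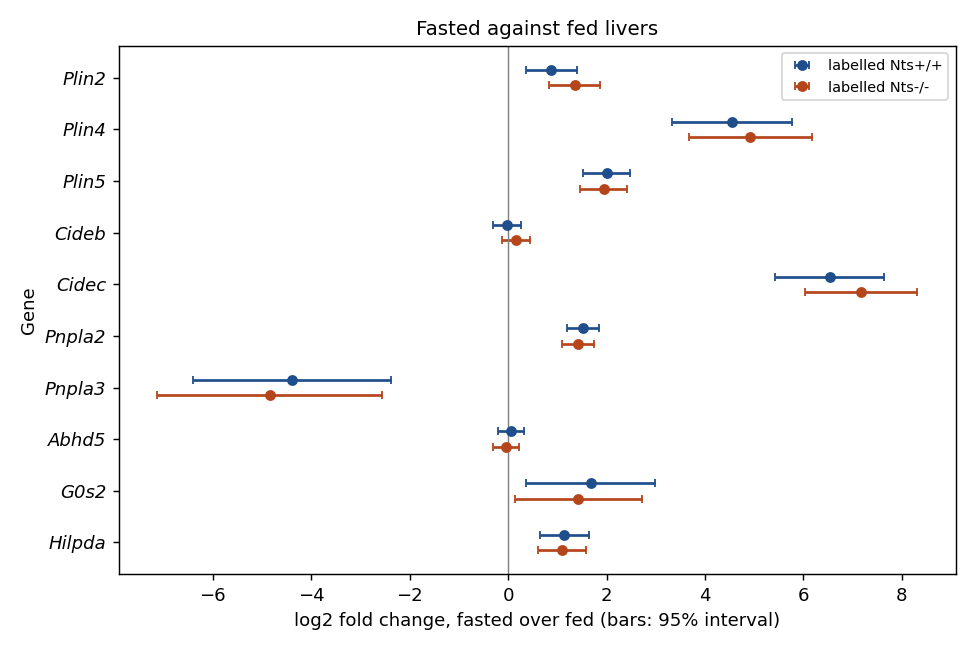
Log2 fold change of each member, fasted over fed, from edgeR's fit of all 12 mice, with 95% intervals, for each genotype label. Cidec and Plin4 lie farthest above 0 and Pnpla3 farthest below, and the intervals of Cideb and Abhd5 contain 0.

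Counted by mice, fed and fasted values did not overlap for 7 members in livers labelled Nts+/+ (36.0% of all tested genes) and for 8 members in livers labelled Nts-/- (35.2%). The eighth was G0s2.

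Mouse 323, a fed liver labelled Nts+/+, lay closest to the fasted side among its 3 group mates for 6 of the 7 members that passed. The exception was Plin4, for which mouse 254 was highest. In the same mouse, Srebf1, the transcription factor of lipid synthesis, measured 129 CPM, against 194 and 319 CPM in the other fed livers labelled Nts+/+ and between 17.8 and 37.9 CPM in all fasted livers. Singling out this mouse was done after its values were seen, and what sets it apart was not tested. With it left out, all 7 genes that passed still did so, and G0s2 joined them, beside 2418 of 14109 tested genes.

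Residuals from the group means showed which members varied together from mouse to mouse, over 12 mice that share libraries and depth, and they are given as a description. Among all pairs of members, the highest correlations were 0.784 between Plin2 and Cidec and 0.772 between Plin5 and Cidec, and the lowest was -0.725 between Plin5 and Pnpla3. Without mouse 323 these were 0.546, 0.097 and 0.649, so the value for Plin5 and Cidec and the sign for Plin5 and Pnpla3 rest on that mouse. Between Plin2 and Plin4 the value was 0.341 with that mouse and 0.686 without it. The genes outside the list whose level over 12 mice, groups included, followed Plin2 most closely were Rab30 (Pearson's r = 0.984), Mmadhc (0.975), Paip1 (0.969), 3930402G23Rik (0.968) and Psmd6 (0.962).

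Levels of different genes can be compared per transcript length, as CPM per kilobase. In fed livers labelled Nts+/+, the order was Plin2 (297 ± 99.9, SD, n = 3), Cideb (171 ± 6.22), G0s2 (92.6 ± 48.7), Pnpla2 (23.8 ± 1.59), Plin5 (21.4 ± 8.71), Abhd5 (8.51 ± 1.13), Pnpla3 (3.10 ± 2.52), Hilpda (0.897 ± 0.268), Cidec (0.20 ± 0.193) and Plin4 (0.189 ± 0.0937). The ranges of Pnpla2 and Plin5, of Pnpla3 and Hilpda, and of Cidec and Plin4 overlapped, in each case only through mouse 323. In fasted livers of the same label, Plin2 stood at 546 ± 64.1, G0s2 at 297 ± 255, Cideb at 168 ± 20.8, Plin5 at 85.7 ± 12.0, Pnpla2 at 68.2 ± 8.02, Cidec at 17.7 ± 6.11, Abhd5 at 8.83 ± 0.723, Plin4 at 4.47 ± 0.419, Hilpda at 1.97 ± 0.0665 and Pnpla3 at 0.148 ± 0.0587. Cidec moved from ninth to sixth place and Pnpla3 from seventh to last. Ranges of Plin2 and G0s2, of G0s2 and Cideb, and of Plin5 and Pnpla2 overlapped. Livers labelled Nts-/- gave the same order when fed, except that Plin4 (0.139 ± 0.078) and Cidec (0.13 ± 0.0172), whose ranges overlapped, exchanged places. The ranges of Plin2 (180 to 305) and Cideb (157 to 187) overlapped there, as did those of Pnpla2 and Plin5. When fasted, Cideb (188 ± 23.4) and G0s2 (186 ± 55.0) exchanged places, and their ranges overlapped too, as did those of Plin4 and Hilpda.

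Ratios of these values within each liver showed how the balance of the members changed, in livers labelled Nts+/+ and then Nts-/-. The ratio of Pnpla2 to its coactivator Abhd5 was between 2.59 and 3.25 when fed and between 7.48 and 8.11 when fasted, then between 2.46 and 2.98 and between 6.41 and 10.0. The ratio of the inhibitor G0s2 to Pnpla2 overlapped between states, at 2.35 to 5.85 fed and 1.62 to 9.86 fasted, then 2.55 to 3.40 and 1.66 to 3.95. Plin5 made up 6.65% ± 0.678 (SD, n = 3) of the Plin2, Plin4 and Plin5 transcripts when fed and 13.5% ± 1.51 when fasted, then 8.11% ± 2.34 and 11.2% ± 1.20, where 1 fed mouse overlapped the fasted range. Cidec made up 0.12% ± 0.119 of the Cideb and Cidec transcripts when fed and 9.50% ± 2.88 when fasted, then 0.0775% ± 0.0128 and 9.42% ± 2.96.

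**Figure D3:**
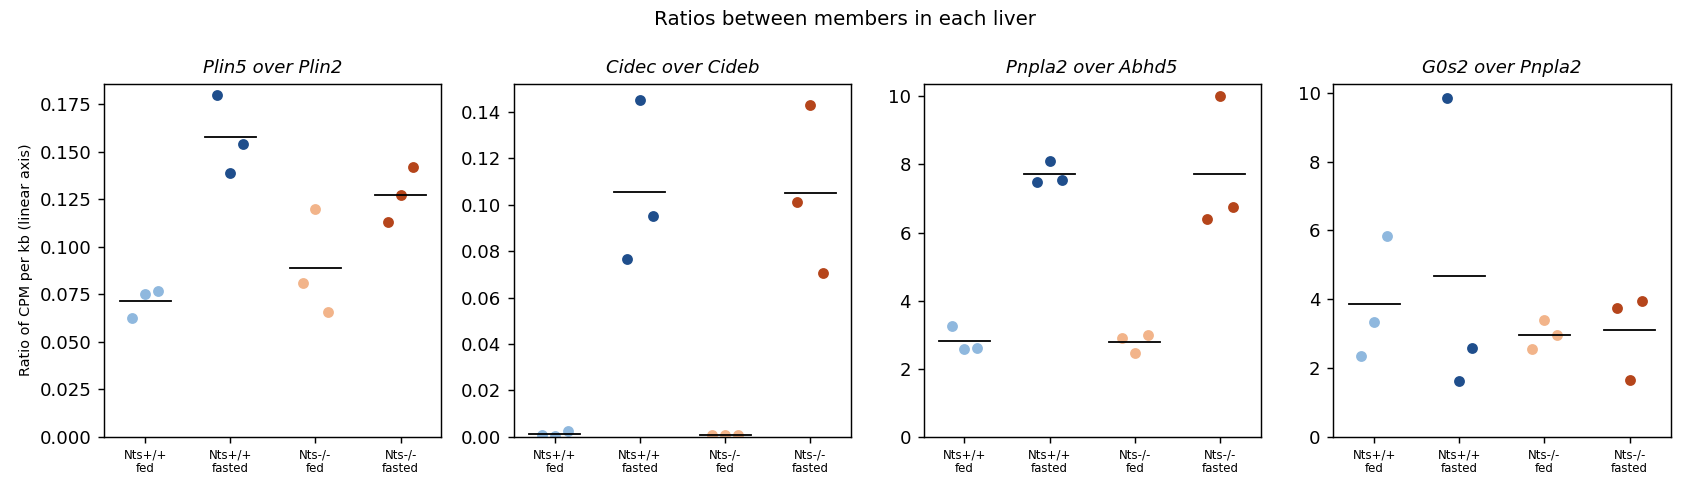
Ratios of CPM per kilobase between members in each liver, on linear axes. Each point is 1 mouse and each bar the mean of 3. The ratio of Pnpla2 to Abhd5 lies between 2.46 and 3.25 in the 6 fed livers and between 6.41 and 10.0 in the fasted ones, while the ratio of G0s2 to Pnpla2 overlaps.

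The comparison of genotype labels asked whether Nts alters these genes in either feeding state, and no member passed it. In fed livers, 0 of 10 members passed, against 0% of all tested genes, and 0 members had an unadjusted p under 0.05, as did 876 of all genes. In fasted livers, 0 of 10 passed, against 0% of all genes, and 0 members had an unadjusted p under 0.05, as did 685 of all genes. DESeq2 also called 0 members in both. No member separated the 3 mice of one label from the 3 of the other in either state, while 10.7% of all genes did when fed and 12.2% when fasted. The lowest adjusted p of a member was 0.836 (Hilpda) in fed livers and 0.922 in fasted livers.

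The intervals show the range of differences that remained possible in each comparison of 6 livers. They were narrow for Pnpla2 (log2 fold change -0.01 fed, 95% interval -0.34 to 0.31; -0.12 fasted, -0.44 to 0.21), Abhd5 (-0.01, -0.27 to 0.26; -0.10, -0.37 to 0.16) and Cideb (-0.02, -0.31 to 0.27; 0.16, -0.13 to 0.45). For Plin2 they were -0.73 to 0.29 fed and -0.26 to 0.76 fasted, and for Plin5 -0.46 to 0.47 and -0.52 to 0.40. They were wide for Plin4 (-1.84 to 0.88 fed), Cidec (-2.03 to 0.97 fed), G0s2 (-1.70 to 0.86 fed and -1.95 to 0.61 fasted) and Pnpla3 (-2.17 to 0.91 fed and -4.07 to 1.88 fasted). These wide intervals include differences of severalfold. Mouse 323 bears on the fed values. Without it, the log2 fold change went from -0.22 to 0.089 for Plin2, from -0.53 to 0.53 for Cidec, from -0.42 to 0.089 for G0s2, from 0.00024 to 0.38 for Plin5 and from -0.63 to -1.17 for Pnpla3, and 0 members passed.

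**Figure D4:**
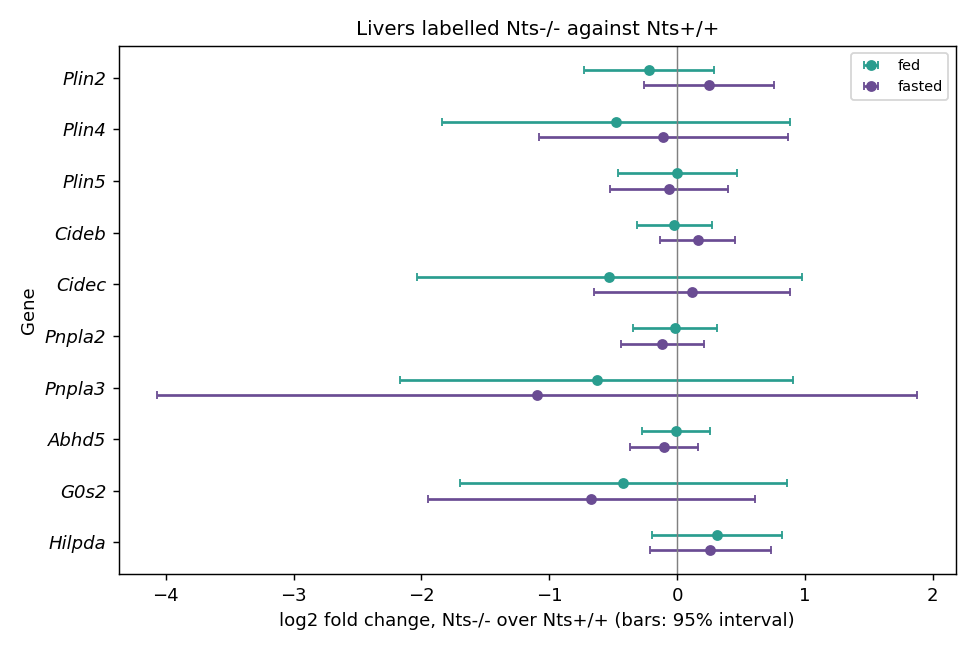
Log2 fold change of each member, livers labelled Nts-/- over livers labelled Nts+/+, in fed and in fasted mice, with 95% intervals from edgeR's fit. Every interval contains 0, and that of Pnpla3 in fasted livers is the widest, at -4.07 to 1.88.

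The fasting responses of the genotypes were also compared directly. None of the 10 members passed the test of the difference, against 0% of all tested genes, and 0 had an unadjusted p under 0.05, as did 663 of all genes. DESeq2 called 0 members. The largest differences were 0.65 for Cidec (95% interval -1.04 to 2.33), 0.47 for Plin2 (-0.25 to 1.19) and -0.46 for Pnpla3 (-3.69 to 2.76), with the lowest adjusted p at 0.901. Each fasting comparison has its own fed and fasted mice, and the genotype comparisons reuse the same 12 mice.

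Other genes of droplet biology gave the following counts. Of 19 further coat, growth and biogenesis genes, 17 were tested, and 3 rose and 1 fell in livers labelled Nts+/+, 4 rose and 1 fell in livers labelled Nts-/-, beside 18.1% and 16.8% of all tested genes in either direction. The median log2 fold change was 0.20 and 0.15. Acsl3, an acyl-CoA synthetase that supplies nascent droplets, fell (log2 -1.53 and -1.96). Hsd17b11, a droplet dehydrogenase, rose (1.26 and 1.51), as did Fitm2, which is needed for droplets to bud (1.09 and 1.33). Plin3, the ubiquitous perilipin, had log2 fold changes of -0.16 and -0.29 and did not pass.

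Of 17 further neutral lipid hydrolases and patatin-domain relatives, 15 were tested. Of these, 4 rose and 3 fell in livers labelled Nts+/+, and 3 rose and 3 fell in livers labelled Nts-/-. Beside them, 18.1% and 16.8% of all tested genes passed in either direction. The median log2 fold change of the list was -0.18 and 0.01. Mgll, which cleaves the last fatty acid from monoacylglycerol, rose (1.53 and 1.47), as did the monoacylglycerol lipase Abhd6 (1.26 and 1.37) and the phospholipase Ddhd2 (1.18 and 1.22). Ces3b, a carboxylesterase, had a log2 fold change of -1.31 (adjusted p = 0.0513) in livers labelled Nts+/+ and of -1.48 (adjusted p = 0.0339) in livers labelled Nts-/-, so that only the second passed. It belongs to a family of near-identical copies between which reads may be divided. Lipe, which encodes hormone-sensitive lipase, had log2 fold changes of 0.28 and 0.13 and did not pass.

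**Figure D5:**
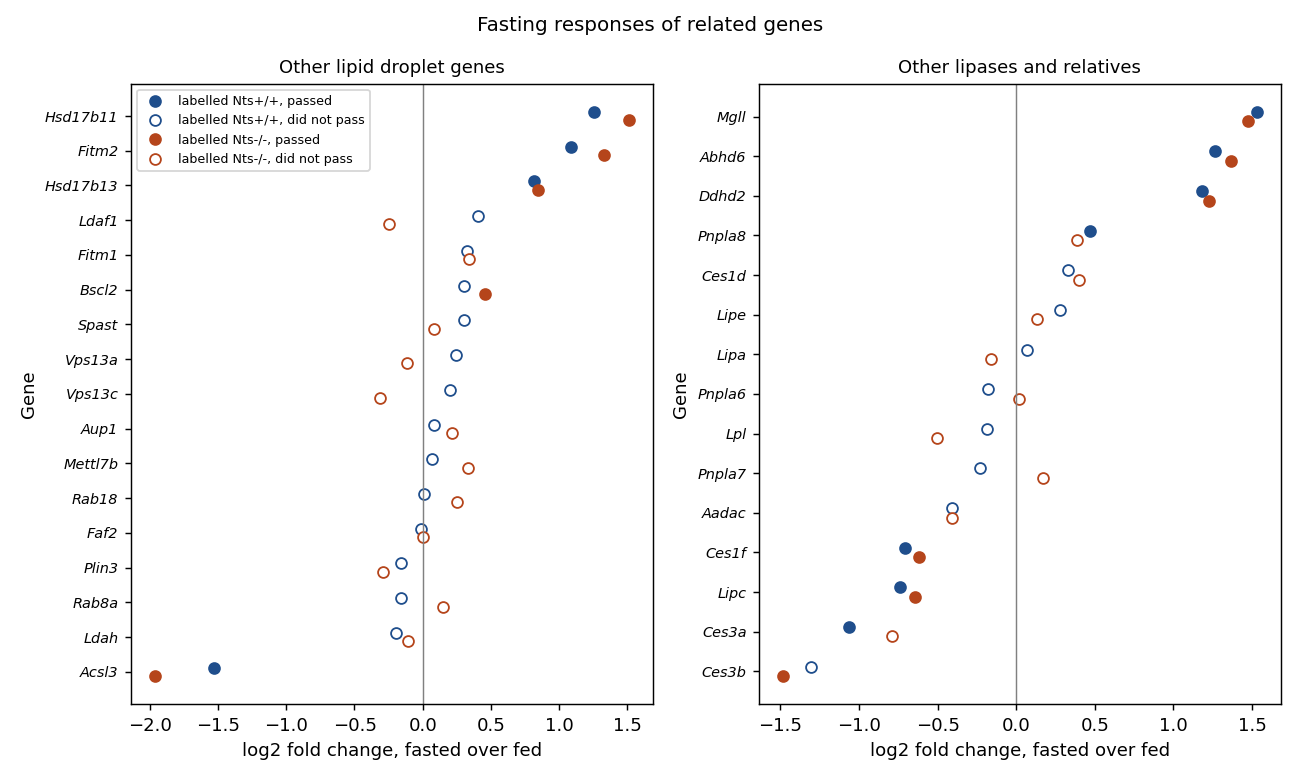
Log2 fold change, fasted over fed, of 17 other lipid droplet genes and 15 other lipases and relatives in each genotype. Filled points passed at an adjusted p under 0.05 and open points did not. Acsl3 lies lowest among the droplet genes and Mgll highest among the lipases and relatives.

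Transcription factors with known links to the members were measured as well. Of 12 such genes, 2 rose and 2 fell in livers labelled Nts+/+, and 2 rose and 3 fell in livers labelled Nts-/-. Beside them, 18.1% and 16.8% of all tested genes passed in either direction. The median log2 fold change of the 12 was 0.17 and 0.10. Srebf1 (log2 -2.90 and -3.32) and Mlxipl, which encodes ChREBP (-1.83 and -1.07), fell in both. Ppara, the fatty acid receptor of the fasted liver, had log2 fold changes of 0.89 (adjusted p = 0.0119) and 0.60 (adjusted p = 0.0687). Creb3l3, which encodes CREBH, had log2 fold changes of 0.48 (adjusted p = 0.116) and 0.96 (adjusted p = 0.00664). Neither gene's fasting response passed the test of a difference between genotypes. Of 12 textbook targets of PPARα, 10 rose in livers labelled Nts+/+ and 11 in livers labelled Nts-/-, and none fell. Of all tested genes, 8.91% and 7.70% rose. The median log2 fold change of these targets was 1.86 and 2.27. Cyp4a10 (3.38 and 3.88), Cyp4a14 (3.28 and 3.72), Fgf21 (2.96 and 2.97) and Ehhadh (2.83 and 2.98) rose in both genotypes, and the first pair are close paralogs whose reads may be divided between them. In all 4 lists, 0 genes passed in either genotype comparison or in the difference of fasting responses.

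Markers of some other liver cells also differed between fed and fasted mice. The summed level of 6 sinusoidal endothelial markers was between 167 and 239 CPM in fed and between 136 and 164 CPM in fasted mice, but the markers did not move as a set. Clec4g was between 43.7 and 74.2 CPM in fed and between 23.0 and 31.6 CPM in fasted mice. Over both genotypes, Stab2, Kdr, Pecam1, Fcgr2b and Lyve1 overlapped. In livers labelled Nts+/+ alone, Kdr was lower when fasted (23.0 to 30.3 CPM) than when fed (32.2 to 41 CPM). Pecam1 was lower there too (14.8 to 16.3 CPM against 16.4 to 19.4 CPM). Lyve1 was higher there when fasted (13.5 to 14.1 CPM) than when fed (5.63 to 6.87 CPM). In livers labelled Nts-/-, Kdr and Pecam1 overlapped, as did Lyve1 (6.62 to 10.8 CPM fed and 5.96 to 12.2 CPM fasted). The sum of 5 cholangiocyte markers was between 33.4 and 49.7 CPM in fed and between 13.7 and 29.6 CPM in fasted mice. It was mostly Spp1 (27.6 to 43.5 CPM and 10.7 to 25.4 CPM), while Krt19, Krt7, Epcam and Sox9 overlapped over both genotypes. In livers labelled Nts-/- alone, Sox9 was lower when fasted (1.69 to 1.95 CPM) than when fed (3.15 to 4.13 CPM). The 6 Kupffer cell markers summed to between 408 and 483 CPM in fed and between 201 and 349 CPM in fasted livers labelled Nts+/+. These sums overlapped in livers labelled Nts-/-. There, Clec4f was lower when fasted (74.9 to 98.8 CPM) than when fed (108 to 136 CPM). Marco was higher there when fasted (7.47 to 104 CPM, the highest in mouse 290) than when fed (3.69 to 6.2 CPM). Adgre1, Cd5l, Vsig4 and Timd4 overlapped there. In livers labelled Nts+/+, 6 stellate cell markers summed to 222 to 244 CPM when fed and 184 to 209 CPM when fasted. The stellate sums overlapped in livers labelled Nts-/-, as did Dcn, their largest part (123 to 172 CPM fed and 145 to 151 CPM fasted). Lower there when fasted were Lrat (7.25 to 9.02 against 9.87 to 21.3 CPM) and Reln (26.1 to 34.3 against 40.4 to 54.9 CPM). So were Des (2.34 to 2.79 against 3.26 to 4.21 CPM) and Col1a1 (0.614 to 1.17 against 1.67 to 3.1 CPM). The same held for Pdgfrb (3.47 to 4.76 against 7.98 to 9.58 CPM). In livers labelled Nts+/+, Reln and Des overlapped. Sums of lymphocyte and of erythroid markers overlapped in both genotypes. The part of these markers in the members' responses was not tested.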

How the data were processed

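Total RNA of 12 livers was sequenced, and the authors deposited 1 table of expected counts per gene, which are estimated reads that need not be whole and are not scaled between mice. The submitters' processing notes name Trimmomatic and RSEM, without versions, and GRCm38. Of the table's count columns, 0 belong to other samples. Counts were rounded. Of the members, Cideb and Abhd5 had values that were not whole, which are reads shared with other genes by estimation.

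In R 4.3.3, edgeR 4.0.16 kept 13812 genes (filterByExpr), normalized by TMM and fitted 1 mean per group over all 12 mice with robust quasi-likelihood tests. The biological coefficient of variation was 0.202. Standard errors and 95% intervals were derived from each test. CPM per kilobase used the canonical transcript length of GENCODE vM39, matched by Ensembl identifier, or the gene's span in the table where that was shorter (G0s2). Per-million floors are 3 counts and cover counting error only, as do Poisson intervals. The steps were tested on simulated data.

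The members and lists were chosen with earlier results of these data known. All members are named. From each other list, the rule names the 3 genes with the largest absolute change among those that passed in each fasting comparison, and for Plin2 the 5 genes of highest correlation. Other genes named (Plin3, Lipe) were chosen after their values were seen. Ldaf1 was found under an older symbol.

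Results were recomputed with size factors by RLE or by upper quartile, with the Wald test of DESeq2 1.42.0, without the count filter, with a stricter filter (10 or more counts per mouse throughout), with the fit limited to the 6 mice of a comparison, with an added requirement of 1 or more in absolute log2 fold change, and without each mouse in turn. Mice carry individual numbers that no groups share. No pairing was used, and litter was not taken into account. Promoters came from RefSeq on GRCm38.p6, and all 10 members matched.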

Additional observations from a re-analysis of the deposited data

How the results depend on the processing

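The number of members that passed was between 5 and 8 of 10 in each fasting comparison under the alternatives. It was 0 in both genotype comparisons and in the difference of fasting responses under all of them. In the latter comparisons, at most 7 of all genes passed, with DESeq2 in fed livers. The count of 5 came with at least 10 counts in every mouse, a filter that removes Cidec and Pnpla3. With that filter, 2367 of 11940 genes passed in livers labelled Nts+/+ and 2177 in livers labelled Nts-/-. Leaving out a mouse gave 6 to 8 members in livers labelled Nts+/+ and 6 to 7 in livers labelled Nts-/-. Of all tested genes, between 1224 of 14062 and 2418 of 14109 then passed in livers labelled Nts+/+. In livers labelled Nts-/- these were between 1358 of 14027 and 2631 of 14085. When a log2 fold change of 1 or more in size was also required, 6 passed in livers labelled Nts+/+, where Plin2 was lost. In livers labelled Nts-/-, 7 passed. Of all 13812 tested genes, 911 and 915 met this requirement. No member that passed changed sign. Values that changed sign were those that did not pass, with the lowest and highest log2 fold change when each mouse was left out. For the fasting response in livers labelled Nts+/+ these were Abhd5 (-0.043 to 0.15) and Cideb (-0.097 to 0.071). For the fasting response in livers labelled Nts-/- this was Abhd5 (-0.097 to 0.011). For the genotype difference when fed these were Abhd5 (-0.11 to 0.091), Cideb (-0.10 to 0.025), Cidec (-1.01 to 0.53), G0s2 (-0.69 to 0.089), Plin2 (-0.38 to 0.089), Plin4 (-0.96 to 0.012), Plin5 (-0.18 to 0.38), Pnpla2 (-0.095 to 0.058). For the genotype difference when fasted these were Cidec (-0.099 to 0.44), G0s2 (-1.03 to 0.31), Plin4 (-0.78 to 0.20), Plin5 (-0.16 to 0.040). For the difference of fasting responses these were Abhd5 (-0.19 to 0.012), Cidec (-0.42 to 1.12), G0s2 (-0.76 to 0.73), Hilpda (-0.28 to 0.16), Plin4 (-0.31 to 0.86), Plin5 (-0.45 to 0.13), Pnpla2 (-0.27 to 0.0096), Pnpla3 (-1.41 to 0.069). For Plin5 in fed livers, the genotype difference was -0.0037 with RLE normalization and with DESeq2. Values are not given for Cidec and Pnpla3 where a filter removed them, and the cause of other changes was not tested. The spread between 3 mice limits the values of Cidec in fed livers, G0s2, Plin4 and Pnpla3, and the 95% interval of the fasting response of G0s2 in livers labelled Nts+/+ ran from 0.37 to 2.99. For Pnpla3 in fasted livers and Cidec in fed livers, the number of counts is a further limit.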
